A study of Mus musculus with 33 samples.

Results

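In cultured mouse spleen cells, the transcripts of Cd14 and Cd93 were at their lowest after 8 h with a CpG oligodeoxynucleotide (ODN), while the means of the control ODN and medium cultures differed by at most 0.253 at any time. The 2 genes were chosen by their log2 ratios over 3 treatments and 3 times, selected on that late decline with CpG, so the CpG values below are a description of the choice and carry no test. The members were the probes annotated with the symbol Cd14 or Cd93 on the array. Each gene had 1 such probe, with a value on all 33 arrays, so they make up 2 of the 9672 genes with a value and 2 of the 4612 genes measured on all arrays.

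The cells were single spleen cell suspensions from BALB/c mice, labelled female and 2 months old. They were kept at 37 C for 2, 4 or 8 h in medium alone, with 1 uM of a CpG ODN mix (ODNs 1555 and 1466), or with 1 uM of a control ODN mix (ODNs 1612 and 1471). Each treatment had 4 arrays at 2 h, 4 arrays at 4 h and 3 arrays at 8 h. On every array, Cy5-labelled spleen cell cDNA was read against Universal Mouse Reference RNA in Cy3. The labels of this reference name macrophages, B and T lymphocytes and several solid tissues. The submitters describe the repeats as independent experiments, without saying how many animals stood behind each culture. The CpG cultures ask for a response to CpG motifs, the control ODN for an effect of any ODN, and medium for an effect of handling and time in culture.

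CD14 is a lipid-anchored protein of monocytes and macrophages that takes lipopolysaccharide (LPS) from the LPS-binding protein, encoded by Lbp, and passes it to the receptor complex of TLR4 and MD-2, encoded by Tlr4 and Ly96. CD93 is a transmembrane glycoprotein of the group XIV C-type lectin family, which also holds thrombomodulin, CLEC14A and endosialin. It was first studied as a receptor for C1q and as the AA4.1 antigen, and it marks myeloid cells, endothelium, blood cell precursors and immature B cells. CpG ODNs act through another Toll-like receptor, TLR9, inside endosomes.

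Values are log2 ratios of spleen cells over reference after each array was centred on its own median, so 0 means the same ratio as the array's median probe. A ratio says nothing of abundance between genes, because the reference differs from gene to gene. Between 7908 and 11129 probes had a value on an array. The spleen label held in the values: at 8 h in medium, 9 of 13 listed B cell markers averaged 2.00 to 2.45 over the 3 arrays, and 7 of 13 listed T cell markers averaged 1.76 to 2.42. In such a mixed culture, fewer cells of a type and less RNA per cell cannot be told apart.

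Cd14 started close to the reference. At 2 h the 4 medium arrays read 0.22, 0.08, 0.32 and -0.26. The control ODN arrays read -0.07, 0.22, 0.28 and -0.07, and the CpG arrays read 0.35, 0.75, 0.56 and 0.47. All 4 CpG arrays lay above every array of both controls, by a margin of 0.07 over the control ODN and 0.03 over medium. The mean difference was 0.44 ± 0.26 (SE) against each control. Of all genes, 2.27% had CpG arrays wholly above the control ODN arrays at this time, and 3.70% had them wholly above medium.

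At 4 h Cd14 was similar in all treatments. The medium arrays read 0.65, 0.58, 0.85 and 0.37, the control ODN arrays 0.75, 0.67, 0.73 and 0.26, and the CpG arrays 1.18, 0.83, 0.43 and 0.29. The 3 groups overlapped throughout. CpG minus control ODN was 0.08 ± 0.26 and CpG minus medium 0.07 ± 0.26.

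At 8 h Cd14 was lower with CpG than in either control. The medium arrays read 0.64, -0.26 and -0.31, and the control ODN arrays read 0.97, -0.29 and 0.09. The CpG arrays read -0.52, -1.72 and -1.57. All 3 CpG arrays lay below all 6 control arrays, by a margin of 0.23 from the control ODN and 0.21 from medium. Such a separation downwards was found for 19.3% of all genes against the control ODN and 17.7% against medium. In each of the 3 treatments the array numbered 1 was the highest, so the arrays of a group spread widely (SD 0.54 in medium, 0.64 with control ODN and 0.66 with CpG). CpG minus control ODN was -1.53 ± 0.30, a ratio 2.89-fold lower, and CpG minus medium was -1.30 ± 0.30, 2.45-fold lower. These 2 differences share the CpG arrays.

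Cd93 lay well above the reference in all controls. At 2 h the medium arrays read 1.08, 1.48, 1.49 and 1.26, the control ODN arrays 2.19, 2.03, 1.24 and 0.86, and the CpG arrays 1.87, 1.93, 1.91 and 1.67. The CpG arrays were close together (SD 0.12) and all above medium by a margin of 0.18, but they lay within the wide range of the control ODN arrays (SD 0.63). CpG minus medium was 0.52 ± 0.29, and CpG minus control ODN was 0.27 ± 0.29. The higher control ODN arrays, at 2.19 and 2.03, had the lowest database numbers of that group. Without the arrays of lowest database number, CpG minus control ODN was 0.79.

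At 4 h the Cd93 readings were 1.34, 2.44, 2.03 and 1.28 in medium. They were 2.37, 2.29, 1.86 and 1.58 with control ODN, and 1.60, 1.97, 1.83 and 1.01 with CpG. All 4 CpG arrays were under the control ODN mean of 2.03, although the groups overlapped. CpG minus control ODN was -0.42 ± 0.29 and CpG minus medium -0.17 ± 0.29.

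At 8 h Cd93 separated from both controls by a wide margin. The medium arrays read 2.39, 2.45 and 1.66, the control ODN arrays 2.45, 1.83 and 1.48, and the CpG arrays 0.42, -0.07 and 0.20. The highest CpG array was 1.07 below the lowest control ODN array and 1.24 below the lowest medium array. CpG minus control ODN was -1.74 ± 0.33 (3.35-fold lower), and CpG minus medium was -1.98 ± 0.33 (3.95-fold lower). Among all genes, 19.3% had CpG arrays wholly below the control ODN arrays at 8 h and 17.7% had them wholly below medium. Nothing is read from that share here, since the choice of the members used these contrasts.

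**Figure D1:**
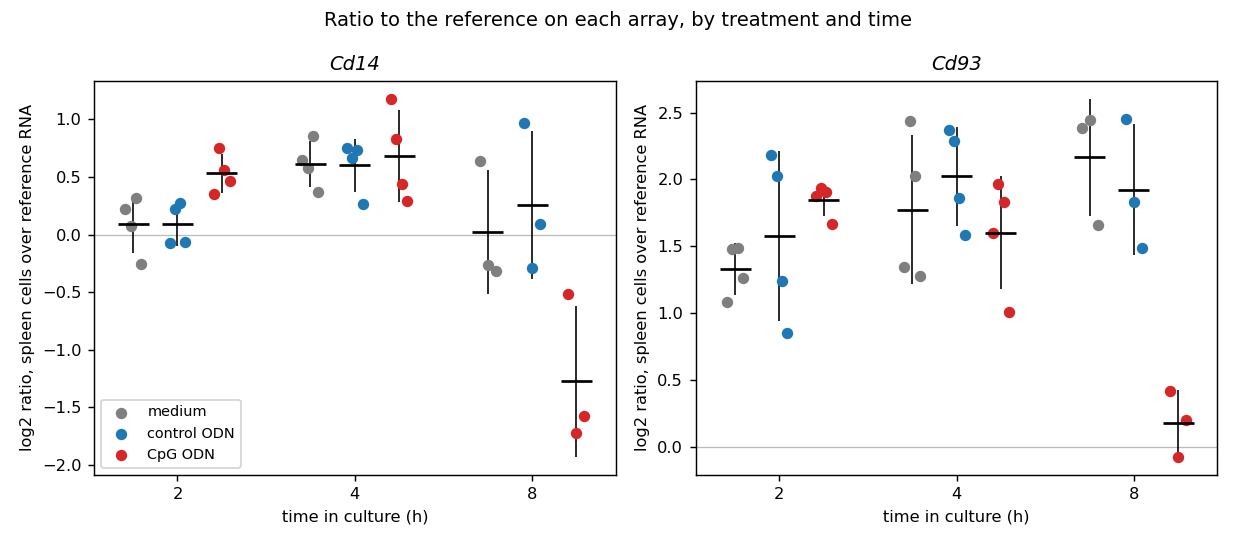
Log2 ratio of spleen cells over reference (vertical axis) for Cd14 (left) and Cd93 (right) at 2, 4 and 8 h in culture (horizontal axis); each point is 1 array, the horizontal bar is the group mean and the vertical line its SD (n = 4 at 2 and 4 h, n = 3 at 8 h). The CpG ODN arrays at 8 h, with means of -1.27 for Cd14 and 0.18 for Cd93, lie below every other array of that time.

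The decline in the CpG cultures came between 4 and 8 h for both genes. Cd14 changed by 0.15 ± 0.26 from 2 to 4 h and by -1.96 ± 0.28 from 4 to 8 h, which made its ratio 3.88-fold lower. Cd93 changed by -0.24 ± 0.29 from 2 to 4 h and by -1.42 ± 0.31 from 4 to 8 h, 2.68-fold lower. These steps include any change with culture time. Without CpG, Cd14 differed from 4 to 8 h by -0.59 ± 0.28 in medium and by -0.34 ± 0.28 with control ODN. Cd93 differed by 0.39 ± 0.31 and -0.10 ± 0.31 in the same cultures, and none of these differences was called. In both genes every 8 h CpG array lay below every 4 h CpG array, by 0.81 for Cd14 and 0.59 for Cd93. Over all genes, 12.1% showed such a separation downwards.

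Ranked among all genes by the CpG difference at 8 h, Cd93 came 16th from the lowest of 9494 against the control ODN and 12th of 9478 against medium. Cd14 came 38th and 97th. For the step from 4 to 8 h with CpG the order was the other way, with Cd14 15th and Cd93 84th from the lowest of 9543. The median of all genes was itself -0.12 against the control ODN and -0.13 against medium at 8 h. Relative to that median, Cd14 was at -1.41 and -1.16, and Cd93 at -1.62 and -1.85.

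**Figure D2:**
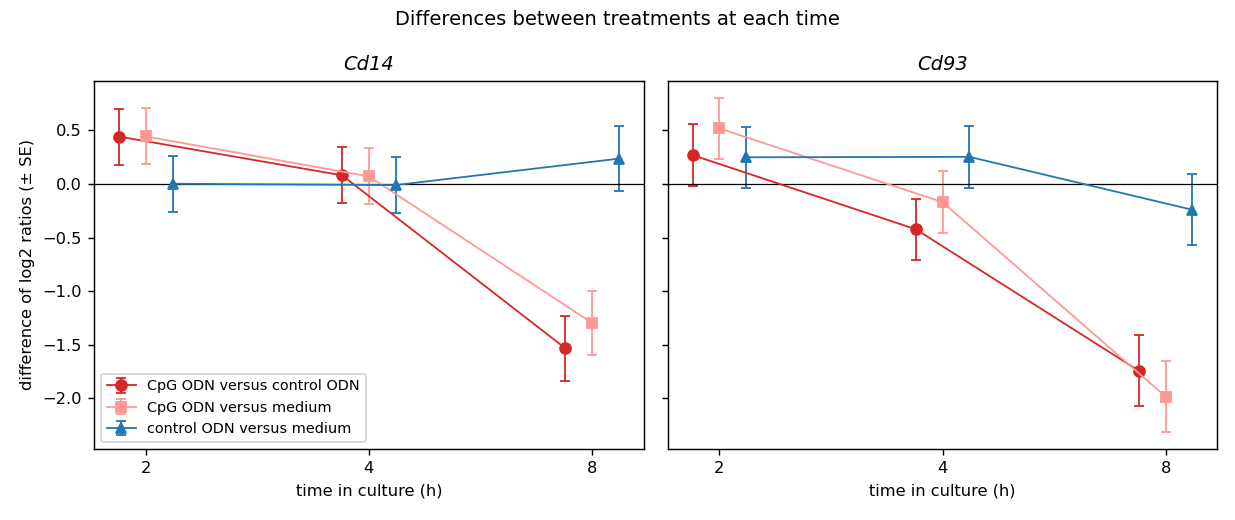
Difference of mean log2 ratios between treatments (vertical axis, bars are SE from the fit) at 2, 4 and 8 h (horizontal axis) for Cd14 (left) and Cd93 (right). The CpG ODN differences sit at -1.53 and -1.30 for Cd14 and at -1.74 and -1.98 for Cd93 at 8 h, while control ODN minus medium stays between -0.24 and 0.25 at every time.

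In the order of the 9 group means, CpG at 8 h stood alone at the bottom for both genes. For Cd14 the means ran from 0.68 (CpG 4 h), 0.61 (medium 4 h), 0.60 (control ODN 4 h), 0.53 (CpG 2 h) and 0.26 (control ODN 8 h) to 0.09 (both controls at 2 h), 0.02 (medium 8 h) and -1.27 (CpG 8 h). Each step between neighbours was smaller than the larger of their SDs, except the last, a gap of 1.30. For Cd93 they ran from 2.16 (medium 8 h), 2.03 (control ODN 4 h), 1.92 (control ODN 8 h), 1.85 (CpG 2 h) and 1.77 (medium 4 h) to 1.60 (CpG 4 h), 1.58 (control ODN 2 h), 1.33 (medium 2 h) and 0.18 (CpG 8 h). Here too only the last step, 1.15, exceeded the SDs beside it. The late decline chose the genes, so the last step describes that choice and carries no test.

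The genes differed in where CpG at 8 h placed them against the reference: Cd14 went from near the reference to below it, and Cd93 from above it to near it. The ratio of Cd14 less that of Cd93 on the same array averaged -1.45 ± 0.45 (SD) with CpG at 8 h, -1.67 ± 0.40 with control ODN and -2.14 ± 0.50 in medium. The ranges of the CpG and control ODN arrays overlapped, from -1.77 to -0.94 and from -2.12 to -1.39. The lowest medium value was -2.71 and the highest -1.74.

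**Figure D3:**
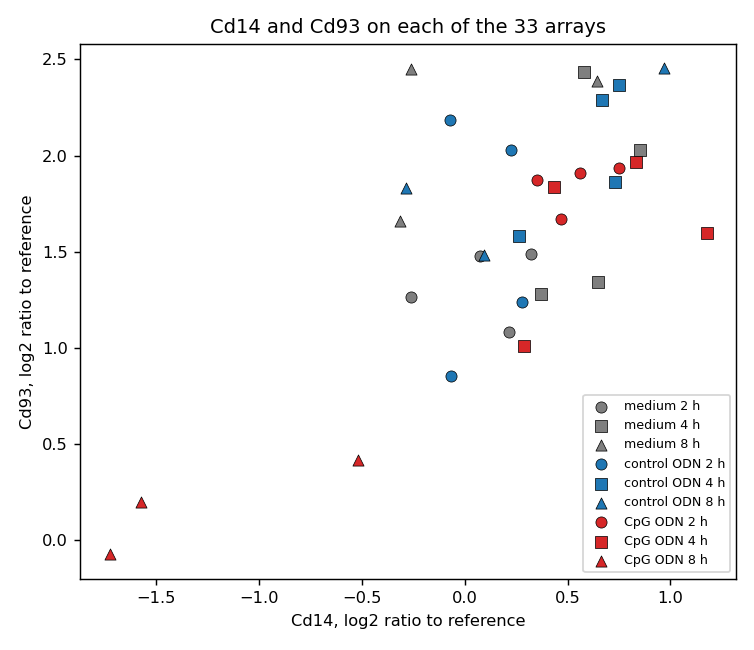
Cd14 (horizontal axis) against Cd93 (vertical axis), both as log2 ratios to the reference, for each of the 33 arrays; colour gives the treatment and shape the time. The 3 CpG ODN arrays of 8 h, with Cd14 between -1.72 and -0.52 and Cd93 between -0.07 and 0.42, stand apart from the other 30 arrays at the lower left.

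Comparisons without CpG ODN were not used to choose the genes and were tested with limma across all genes. The 8 h control arrays also enter the CpG contrasts above. The control ODN did not separate from medium for either gene at any time. Control ODN minus medium for Cd14 was 0.00 ± 0.26 at 2 h, -0.01 ± 0.26 at 4 h and 0.24 ± 0.30 at 8 h. For Cd93 it was 0.25 ± 0.29 at 2 h, 0.25 ± 0.29 at 4 h and -0.24 ± 0.33 at 8 h. All 6 adjusted p-values from limma were at least 0.999, and the arrays of the groups overlapped each time.

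The 95% intervals of these differences for Cd14 ran from -0.53 to 0.53 at 2 h, from -0.54 to 0.52 at 4 h and from -0.38 to 0.85 at 8 h. For Cd93 they ran from -0.34 to 0.83, from -0.33 to 0.84 and from -0.92 to 0.43. They leave room for differences of moderate size. Across all genes, limma called 0 (0%) at an adjusted p below 0.05 at each of the 3 times, with 229, 176 and 379 genes at an unadjusted p below 0.05. Without control ODN array 1 at 8 h the Cd14 difference was -0.12, so its sign rested on that array. Tested as a change between times, control ODN minus medium gave no called shift for either gene (limma adjusted p at least 0.996).

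No change of either gene with time in medium passed the threshold. Cd14 was 0.52 ± 0.26 higher at 4 h than at 2 h, with all 4 arrays above all those of 2 h by 0.05, but the adjusted p was 0.384 (limma). In that comparison 1.58% of genes were called and 6.74% were wholly separated upwards. From 4 to 8 h in medium it differed by -0.59 ± 0.28 (limma adjusted p = 0.345, 0.731% of genes called). The groups overlapped through array 1 of 8 h, and without that array the difference was -0.90. Between 2 and 8 h Cd14 differed by -0.07 ± 0.28 (limma adjusted p = 0.916), and its sign turned to 0.10 without array 3 of 8 h.

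Cd93 in medium was 0.44 ± 0.29 higher at 4 h than at 2 h (limma adjusted p = 0.537) and another 0.39 ± 0.31 higher at 8 h than at 4 h (adjusted p = 0.619). From 2 to 8 h the difference was 0.84 ± 0.31, a 1.79-fold higher ratio, with the 3 arrays of 8 h all above the 4 arrays of 2 h by 0.17. It missed the threshold (limma adjusted p = 0.0670), in a comparison in which 14.6% of genes were called and 14.3% were wholly separated upwards. The call turned positive when only genes measured on all arrays were adjusted together (adjusted p = 0.0497), and without medium array 3 of 8 h (1.09, adjusted p = 0.0446).

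The control ODN cultures showed no called change with time in either gene. Cd14 differed by 0.51 ± 0.26 from 2 to 4 h, by -0.34 ± 0.28 from 4 to 8 h and by 0.17 ± 0.28 from 2 to 8 h (limma adjusted p of 0.401, 0.609 and 0.797). Cd93 differed by 0.45 ± 0.29, -0.10 ± 0.31 and 0.35 ± 0.31 over the same steps (adjusted p of 0.542, 0.927 and 0.560). The share of all genes called was 1.30%, 2.53% and 10.1%. Without control ODN array 1 of 8 h, the Cd14 difference from 2 to 8 h was -0.19. The Cd93 difference from 4 to 8 h was 0.12 without control ODN array 3 of 8 h and 0.01 without array 1 of 4 h.

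The partners of CD14 in LPS recognition did not move as a group at 8 h. Against the control ODN, 517 of 9494 genes (5.45%) were lower and 432 (4.55%) higher. Against medium, 6.11% were lower and 5.66% higher. Under quantile normalization the split was 212 lower and 414 higher against the control ODN, and 290 lower and 494 higher against medium. Of 21 listed genes of the LPS receptor complex and its adaptors, 14 could be tested. Of these, 2 rose and 1 fell with CpG against the control ODN, with a list median of -0.19 beside -0.12 over all genes, and against medium 1 rose and 1 fell.

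Tlr4, the signalling receptor, differed by -0.91 ± 0.30 against the control ODN (limma adjusted p = 0.0505) and fell by 1.04 against medium (adjusted p = 0.0198). Its call against medium was lost without CpG array 2 (-0.86, adjusted p = 0.120) and without medium array 2 (-0.94, adjusted p = 0.0862). Against the control ODN it was gained without CpG array 1 (-1.06, adjusted p = 0.0434). A second Tlr4 probe, measured on 24 arrays, gave 0.33 and 0.23 instead, so the probes disagree in direction. The mean of both probes differed from medium by -0.41 (adjusted p = 0.470).

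Ly96, which encodes the MD-2 subunit that holds LPS, rose by 0.74 ± 0.21 against the control ODN (limma adjusted p = 0.0205) and differed by 0.30 ± 0.21 from medium (adjusted p = 0.403). The Ly96 call was lost without control ODN array 3 (0.68, adjusted p = 0.0757) and without CpG array 2 (0.63, adjusted p = 0.113). Myd88, the adaptor shared by TLR4 and TLR9, rose by 1.41 ± 0.25 against the control ODN (adjusted p = 2.02e-04) and by 1.65 ± 0.25 against medium (adjusted p = 1.93e-05). Itgb2, the beta chain of the CD11b/CD18 integrin, fell by 0.87 ± 0.19 against the control ODN (adjusted p = 0.00305). Lbp differed by -0.19 ± 0.39 (adjusted p = 0.854).

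Of 8 listed genes of the nucleic acid Toll-like receptors, 3 were tested. Tlr7, an endosomal receptor for single-stranded RNA, rose by 2.40 ± 0.24 against the control ODN (limma adjusted p = 2.32e-08). Tlr9, the receptor for CpG DNA, differed by 1.24 ± 0.47 over 3 CpG and 2 control ODN arrays (adjusted p = 0.0952), and was called when the fit held just the compared groups (adjusted p = 0.0257).

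Of 14 listed relatives and partners of Cd93 (group XIV lectins, C1q chains and cytoplasmic partners), 10 were tested and 0 were called against either control. The list median was -0.21 against the control ODN, beside -0.12 over all genes, of which 5.45% were called lower and 4.55% higher. C1qc, a chain of the complement protein C1q, had the smallest p at -0.61 ± 0.30 (limma adjusted p = 0.228). C1qa differed by -0.79 ± 0.84 over 2 arrays a group (adjusted p = 0.670).

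Among other myeloid surface receptors, more were called lower than higher with CpG at 8 h. Of 45 listed, 25 were tested. With CpG against the control ODN, 1 rose and 6 fell, beside 4.55% and 5.45% of all genes. The median was -0.31, beside -0.12 over all genes. Under quantile normalization 0 rose and 6 fell. Against medium, 1 of 26 rose and 4 fell, beside 5.66% and 6.11% of all genes. The median there was -0.20, beside -0.13 over all genes. The farthest from 0 against the control ODN was Clec7a, the beta-glucan receptor Dectin-1, which fell by 1.60 ± 0.37 (limma adjusted p = 0.00436). Clec4d, another C-type lectin of myeloid cells, fell by 1.35 ± 0.28 (adjusted p = 0.00118). Sirpa, the receptor for CD47, fell by 1.29 ± 0.23 (adjusted p = 1.88e-04). Fcgr3, a low-affinity Fc receptor, fell by 1.32 ± 0.38 (adjusted p = 0.0209).

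The call of Clec7a was lost without CpG array 2 (-1.20, adjusted p = 0.0613), and that of Fcgr3 without CpG array 2 (-1.06, adjusted p = 0.138) or control ODN array 3 (-1.03, adjusted p = 0.133). Fcgr1, the high-affinity Fc receptor, rose by 0.99 ± 0.30 against the control ODN (limma adjusted p = 0.0306) and by 1.25 ± 0.30 against medium (adjusted p = 0.00477). Its call against the control ODN was lost without CpG array 1 (0.56, adjusted p = 0.274), control ODN array 2 (0.91, adjusted p = 0.109) or control ODN array 3 (0.83, adjusted p = 0.139), and against medium without CpG array 1 (0.82, adjusted p = 0.0687).

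Of 22 listed myeloid transcription factors, 16 were tested. Over all genes, 4.55% were called higher and 5.45% lower against the control ODN, with a median of -0.12. The list median was -0.14 against the control ODN. There 2 rose: Irf8, a regulator of monocyte and dendritic cell fate, by 1.27 ± 0.35 (limma adjusted p = 0.0173), and Cebpd, an inflammation-responsive C/EBP factor, by 0.91 ± 0.28 (adjusted p = 0.0341). The immediate early factor Egr1 fell by 0.82 ± 0.27 (adjusted p = 0.0482). Each of these 3 calls was lost without certain single arrays. Irf8 was not called without control ODN array 3, CpG array 2 or CpG array 3 (adjusted p from 0.0593 to 0.0684), nor Cebpd without the same 3 (from 0.107 to 0.194). Egr1 was not called without control ODN array 1 or 2 or CpG array 2 or 3 (from 0.0959 to 0.284). Against medium 1 of the 16 rose and 1 fell, beside 5.66% and 6.11% of all genes. Irf8 rose there by 1.53 ± 0.35 (limma adjusted p = 0.00319) and was called in all 14 alternatives. Egr1 fell by 0.81 ± 0.27 (adjusted p = 0.0467), a call lost in 8 of the 14. Cebpd differed by 0.62 ± 0.28 (adjusted p = 0.160) and was called in 2 of the 14.

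**Figure D4:**
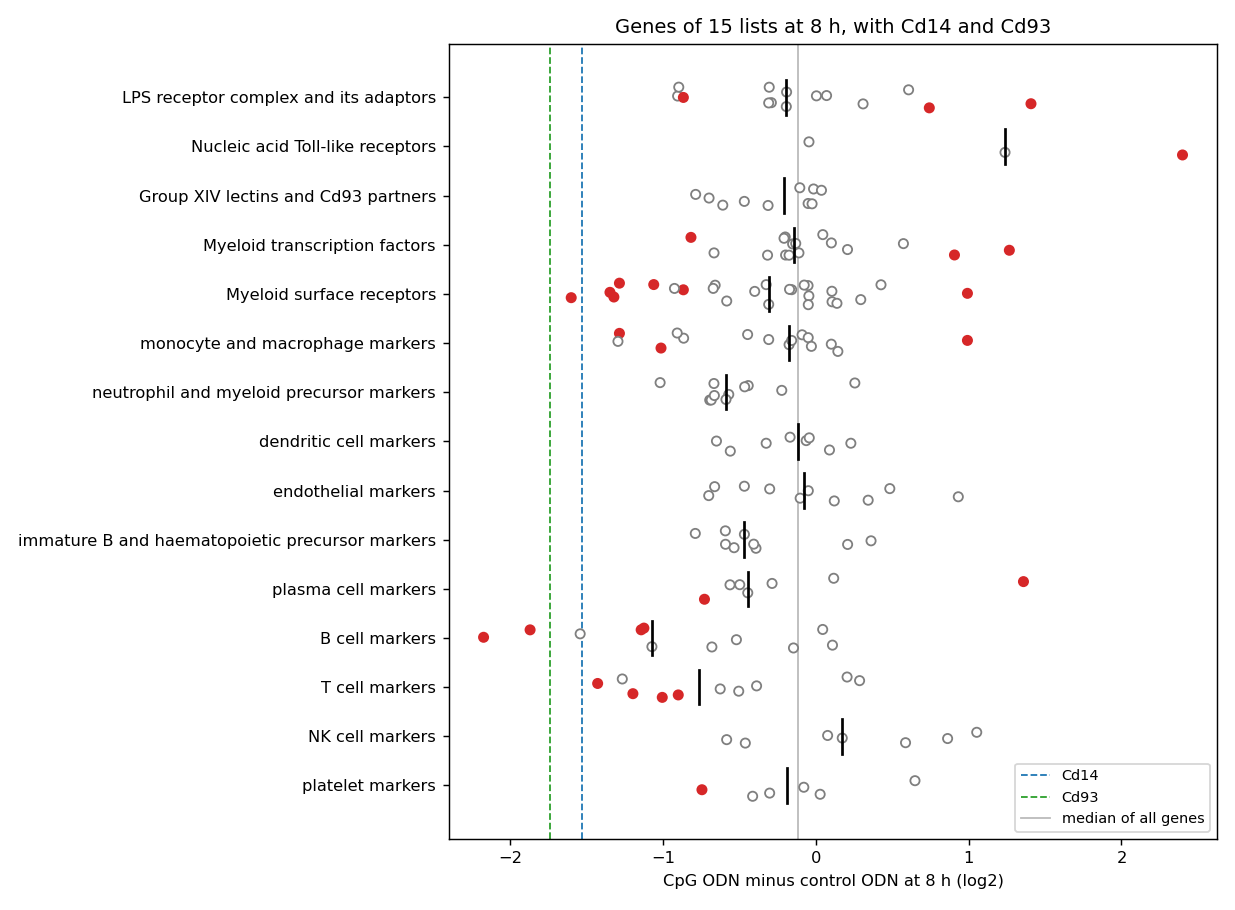
CpG ODN minus control ODN at 8 h in log2 ratio (horizontal axis) for every tested gene of 15 lists (rows); filled points passed the limma test at an adjusted p below 0.05, open points did not, and the short bar is the list median. The dashed lines for Cd14 (-1.53) and Cd93 (-1.74) lie below all genes shown except Fcrla and Cd79b of the B cell list for Cd93, and these with Clec7a and the uncalled Cd79a, named after its value was seen, for Cd14.

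Markers of the cells that carry the members were read in the same arrays. For monocytes and macrophages, 13 of 25 listed markers had a value on every array of 8 h. Their mean log2 ratio at 8 h ran from 0.11 to 0.61 in medium, from 0.28 to 0.83 with control ODN and from -0.16 to 0.40 with CpG, so the groups overlapped. Of 15 monocyte and macrophage markers tested against the control ODN, 1 rose (Fcgr1) and 2 fell (Sirpa and Vcam1), with a median of -0.18. Over all genes, 4.55% were called higher and 5.45% lower there, with a median of -0.12. Nothing about these markers is read from so few calls. Vcam1, an adhesion molecule of splenic macrophages and endothelium, fell by 1.01 ± 0.24 (limma adjusted p = 0.00567), and missed the threshold under quantile normalization (-0.75, adjusted p = 0.0526).

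For immature B cells and blood cell precursors, 8 of 12 listed markers had a value on every array of 8 h. Their mean ran from -0.07 to 0.26 in medium, from -0.25 to 0.08 with control ODN and from -0.40 to -0.35 with CpG, below both controls. Among single genes, 19.3% had CpG arrays wholly below the control ODN arrays at 8 h and 17.7% wholly below medium. No such share was worked out for list means. None of the 9 markers tested was called against the control ODN (median -0.47). Rag2, a recombination enzyme of lymphocyte precursors, had the smallest p (-0.79 ± 0.32, limma adjusted p = 0.133, and 0.0490 with array weights). Against medium, where 6.11% of all genes were called lower, 1 of the 9 fell (median -0.55). This was Cd34, a sialomucin of blood cell precursors and endothelium, by 0.93 ± 0.31 (limma adjusted p = 0.0451). The call was lost without CpG array 1 or 3 or medium array 1 or 2 (adjusted p from 0.0697 to 0.198).

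For endothelium, 7 of 17 markers averaged 0.18 to 0.78 in medium, 0.46 to 0.74 with control ODN and 0.23 to 0.57 with CpG. Of 10 endothelial markers tested 0 were called against the control ODN (median -0.08), where Tek, the angiopoietin receptor, stood at -0.70 ± 0.25 (limma adjusted p = 0.0787, and 0.0496 among genes on all arrays). Against medium, where 6.11% of all genes were called lower, 1 of the 10 fell (median -0.24). This was Flt1, a receptor for vascular endothelial growth factor, by 0.71 ± 0.23 (limma adjusted p = 0.0409). Its call was lost without the same 4 arrays (from 0.0851 to 0.170). Both calls were also lost under quantile normalization (0.419 for Cd34 and 0.0656 for Flt1), with array weights, without centring and with only the compared groups fitted. Cd34 and Flt1 were named after their values were seen.

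Of the neutrophil and myeloid precursor markers, only 3 of 16 had a value on every array of 8 h. Their mean ran from 1.55 to 2.11 in medium, 1.14 to 2.29 with control ODN and 0.46 to 1.41 with CpG. Of 11 tested, 0 were called against the control ODN (median -0.59), where the calprotectin subunit S100a8 stood at -1.02 ± 0.34 (limma adjusted p = 0.0571). It passed without control ODN array 3 (-1.30, adjusted p = 0.0278) or CpG array 1 (-1.35, adjusted p = 0.0178). Against medium, where 6.11% of all genes were called lower, S100a8 fell by 1.56 ± 0.34 (limma adjusted p = 0.00225), the 1 call among the 11. The list median there was -0.59, and S100a8 was called in all 14 alternatives (adjusted p up to 0.0447). Of the dendritic cell markers, 6 of 13 had a value on every array of 8 h. They averaged 1.37 to 1.61, 1.43 to 1.96 and 1.46 to 1.73 in the same order. Against the control ODN 0 of 8 were called, with a median of -0.12. Cd209a, a C-type lectin of dendritic cells, had the smallest p there (-0.56 ± 0.34, adjusted p = 0.364).

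With CpG at 8 h the means of the B cell and T cell markers lay below both controls, while a minority of the single markers were called lower. Of all genes, 5.45% were called lower against the control ODN. The CpG arrays of 8 h lay wholly below the control ODN arrays in 19.3% of single genes and wholly below medium in 17.7%. No such share was worked out for marker means. The 9 B cell markers averaged 1.37 to 1.57 with CpG against 2.23 to 2.64 with control ODN and 2.00 to 2.45 in medium, and the 7 T cell markers averaged 1.27 to 1.67 against 2.09 to 2.36 and 1.76 to 2.42. Of 11 B cell markers tested against the control ODN 4 fell, among them Fcrla, an intracellular Fc receptor-like protein, by 2.18 ± 0.38 (limma adjusted p = 2.12e-04) and Cd79b, a chain of the B cell receptor complex, by 1.87 ± 0.29 (adjusted p = 3.57e-05). Of 10 T cell markers 4 fell, among them the T cell adaptor Lat by 1.20 ± 0.27 (adjusted p = 0.00366). The list medians were -1.07 for B cells and -0.76 for T cells. Single markers lay between -2.18 and 0.11 for B cells and between -1.43 and 0.29 for T cells. The 4 B cell calls went to 2 without CpG array 2 or control ODN array 1. The 4 T cell calls went to 2 without CpG array 2, to 2 under quantile normalization and to 1 among genes on all arrays.

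Against medium, where 6.11% of all genes were called lower, 3 of 11 B cell markers and 1 of 10 T cell markers fell. The list medians were -0.31 and -0.48, beside -0.13 over all genes. The T cell count there was 0 without CpG array 2, 2 without medium array 1 or 2, and between 0 and 5 over all alternatives.

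The other lists were near the median of all genes or mixed. Against the control ODN, 4.55% of all genes were called higher and 5.45% lower. Of 7 plasma cell markers tested against the control ODN, Irf4 rose by 1.36 ± 0.31 (limma adjusted p = 0.00325) and Jchain, the joining chain of IgM and IgA, fell by 0.73 ± 0.22 (adjusted p = 0.0284). The Jchain call was lost without control ODN array 1, control ODN array 2 or CpG array 2 (adjusted p from 0.112 to 0.194). Of 7 NK cell markers 0 were called against the control ODN (median 0.17), and of 6 platelet markers 1, Gp9, fell by 0.75 ± 0.23 (adjusted p = 0.0365), a call lost when any 1 of the 6 arrays was left out. When the fit held just the compared groups, the calls against the control ODN of Clec7a, Clec4d, Itgb2, Ly96, Cebpd, Egr1, Fcgr1, Jchain and Gp9 were lost (limma adjusted p from 0.0508 to 0.164), as were those of Tlr4 (0.0814) and Fcgr1 (0.129) against medium. Under quantile normalization those of Egr1, Fcgr1, Jchain and Gp9 against the control ODN (from 0.0667 to 0.216) and of Tlr4 against medium (0.0660) were lost.

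The part of the cell mixture in the values of Cd14 and Cd93 was not tested. An array ratio has no true 0, so no marker can be read as absent.

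By root mean square difference between group means, each gene centred over the 9 groups, the nearest profiles were sought among 4611 other genes measured on all arrays. The nearest to Cd14 were Ift46 (0.191), Adgra2 (0.198), Adssl1 (0.215), Ugt1a6a (0.216) and Ect2 (0.229). The nearest to Cd93 were Dhrs7 (0.183), Dnase1l1 (0.196), Cat (0.215), Ugt1a6a (0.218) and Ing1 (0.236). Ugt1a6a, a glucuronosyltransferase, stood in both sets. Cd93 was 82nd nearest to Cd14, and Cd14 53rd nearest to Cd93, at a distance of 0.325. Both members were chosen for the same late decline with CpG, so their nearness describes that choice and carries no test. In level the sets differed widely: with CpG at 8 h Cat, the gene of catalase, stood at 0.05 and Ugt1a6a at -4.33.

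Being chosen for the same profile, all of these genes were lower with CpG at 8 h than with control ODN. The differences ran from -0.76 ± 0.45 for Ect2, a gene needed for cytokinesis, to -1.74 ± 0.24 for Adssl1, an enzyme of AMP synthesis, in the set near Cd14. In the set near Cd93 they ran from -1.06 ± 0.21 for Ing1, a chromatin-binding growth inhibitor, to -1.78 ± 0.21 for Dnase1l1, a DNase I relative. These values are a description of the choice. Dhrs7, a short-chain dehydrogenase, has a second probe, measured on 31 arrays, at which the difference was -0.08 in place of -1.42, so its place rests on the probe used.

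**Figure D5:**
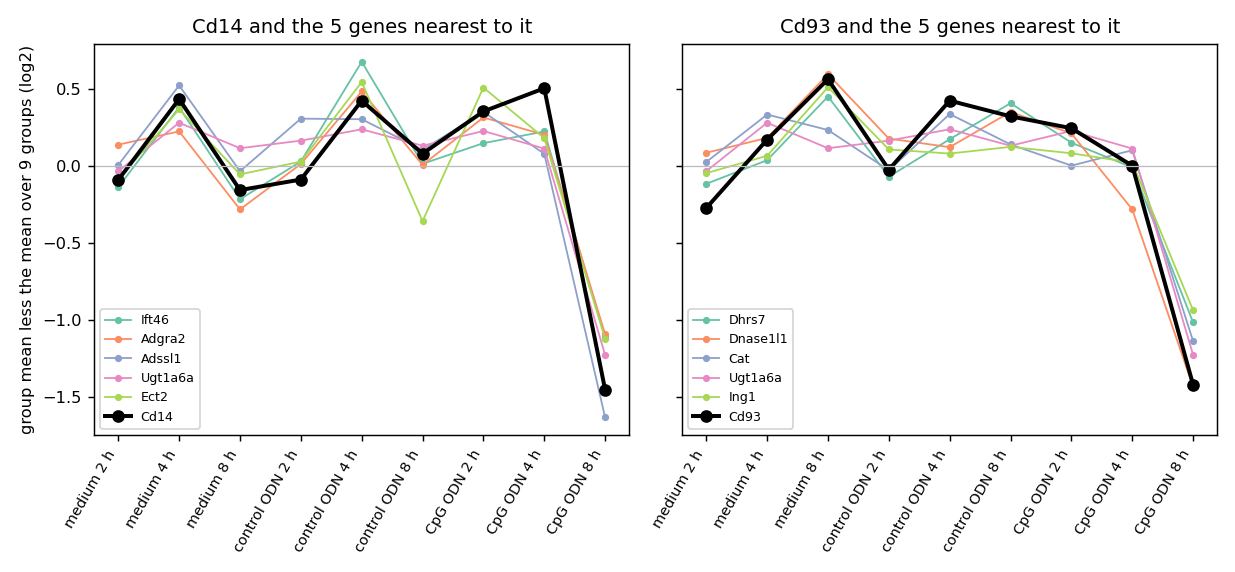
Group means of log2 ratio less each gene's mean over the 9 groups (vertical axis) across the 9 groups (horizontal axis) for Cd14 with its 5 nearest genes (left) and Cd93 with its 5 nearest (right). All lines drop at CpG ODN 8 h, and the nearest lines lie 0.191 (Ift46, left) and 0.183 (Dhrs7, right) from the member in root mean square.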

How the data were processed

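RNA from 33 spleen cell cultures was measured on 2-colour arrays. The deposited table holds 1 log ratio per probe and array, taken as log2 of Cy5 over Cy3; the direction follows from the dyes per the labels. No dye was swapped. The log base is unstated, and base 2 was assumed from the range of -6.51 to 8.54. How the authors corrected background and normalized is not given in the sources used here. Array medians lay between -0.085 and 0.024.

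Probes were named from the platform annotation. Where a gene had several probes, the one with the fewest missing values was used. Arrays were centred on their median. A mean per group was fitted over all 9 groups by limma 3.58.1 under R 4.3.3. Variances were moderated and p-values adjusted by Benjamini-Hochberg over all genes with at least 2 measured arrays in both groups. Genes were called at an adjusted p below 0.05. The fit was checked against lmFit and tested on simulated data. P-values measure the spread between these arrays, whose number limits the precision.

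The members and lists were chosen with earlier results of these data known. Genes named are the members, up to 4 called genes of each list with the largest difference from the control ODN at 8 h (or that of smallest p), Tlr4, Ly96, Lbp, Tlr9 and C1qa, and the 5 genes nearest to each member. Alternatives were uncentred values, quantile normalization, array weights, only the compared groups, replicate blocks, single arrays or the arrays of lowest database number left out, genes on all arrays, and the mean of probes.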

Additional observations from a re-analysis of the deposited data

Results flagged for a closer look

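The mean CpG ODN difference changed sign between times for both genes. In each case all CpG arrays of the earlier time lay above the control mean, and all those of the later time below it. For Cd14, the difference from the control ODN at 8 h less that at 2 h was -1.97, and the difference from medium moved by -1.74. For Cd93 the same changes were -2.01 against the control ODN and -2.50 against medium. The Cd93 difference from the control ODN at 4 h less that at 2 h was -0.69, although the arrays overlapped at both times. These changes between times were not tested, because the late decline chose the genes. Of 12 groups of 4 arrays, no member value lay beyond Dixon's limit, and Cd14 with control ODN at 4 h came closest, through the array at 0.26.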

How the results depend on the processing

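All 4 member differences of CpG ODN at 8 h stayed below 0 in each of 14 alternatives: -1.91 to -1.18 and -1.67 to -0.99 for Cd14 against control ODN and medium, and -1.96 to -1.48 and -2.23 to -1.69 for Cd93. Those ranges include leaving out each array of the compared groups. The late decline chose the genes, so a sign that lasted is part of that description and carries no test. Other member differences near 0 turned sign, none of them called, and the cause was not tested. Control ODN minus medium for Cd14 at 2 h was -0.030 with array weights and -0.0030 under quantile normalization (-0.11 to 0.079 without single arrays). At 4 h it was 0.013, 0.020 and, without the arrays of lowest database number, 0.0012 (-0.091 to 0.10), and at 8 h -0.12 to 0.55. For Cd93 it was -0.28 at 2 h without the arrays of lowest database number and 0.055 at 8 h with array weights. Without single arrays, Cd14 from 2 to 8 h ran from -0.19 to 0.44 with control ODN and -0.38 to 0.10 in medium, and Cd93 from 4 to 8 h with control ODN from -0.37 to 0.12. Cd93 at 2 h moved to 0.79 against control ODN without the arrays of lowest database number and to 0.74 against medium under quantile normalization. The Cd93 difference in medium from 2 to 8 h, 0.84, was called among genes on all arrays, with 0.69 to 1.09 without single arrays.

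Of the listed genes, 25 were called against control ODN at 8 h, but 15 when only the compared groups were fitted, 38 with the replicate block within each time and 12 to 26 without single arrays. Against medium 20 were called, but 34 with array weights, 8, 34 and 14 to 22 under the same settings. Among all genes, 5.45% were called lower and 4.55% higher against control ODN, and 6.11% and 5.66% against medium. Nothing is read from the list counts beside these shares. Lbp against medium turned from 0.065 to -0.083 with the shared replicate block and ran from -0.025 to 0.20 without single arrays, and Cd3e ran from -0.78 to 0.061, both turning without medium array 3. Cd79a turned from 1.02 to -0.66 with array weights. Over all genes, calls at 8 h went from 949 to 564 (compared groups), 626 (quantile) and 1489 (block) against control ODN, and from 1115 to 1995 (array weights), 315 and 1698 (block) against medium. In medium, calls from 2 to 8 h went from 1379 to 2704 (array weights) and 385 (compared groups), from 2 to 4 h from 151 to 1445, 4 and, without the arrays of lowest database number, 44, and from 4 to 8 h from 70 to 791, 0, 38 (quantile) and 173 (shared block). With control ODN they went from 121 to 361 and 61, from 242 to 457, 53 and 50 (quantile), and from 935 to 478 (compared groups). Control ODN against medium had 1 call at 4 h (compared groups) and 1 at 8 h (block).

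Array numbers were not taken as pairs, since 7 of 12, 8 of 12 and 6 of 9 same-number pairs at 2, 4 and 8 h, not every one, had deviations correlated above 0.1. As a hint from the data, the median at 8 h was 0.48 for the same number and -0.18 for others. At the 3 times 7 of 12, 7 of 12 and 8 of 9 arrays were nearest to their own number. Taken by array number, CpG minus control ODN for Cd14 at 8 h was -1.49, -1.44 and -1.67. For Cd93 it was -2.04, -1.91 and -1.28. With the replicate block within each time, Tlr4 (limma adjusted p = 0.0302), S100a8 (0.0197), Rag2 (0.0174), Tek (0.0402), Tlr9 (0.0325) and Klrk1 (0.0356) were called against control ODN. The block within each time could not be fitted between times. Each member has 1 probe, so no separate probe values exist.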
